A study of Homo sapiens with 9 samples.

Results

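The genes described here belong to the integrated stress response and the unfolded protein response, a list of 45 genes that holds ATF4, its targets, the sensors of stress in the endoplasmic reticulum (ER) and the ER chaperones. A gene was measured through the probe sets that the array annotation assigns to its symbol alone, the brightest probe set by mean over 9 arrays was taken, and its highest log2 signal had to reach 5. Of the 45 genes, 43 were measured and all 43 passed that filter, among 11233 genes with a probe set of their own that did. CBS and PDIA3 lie only on probe sets shared with another symbol and were left out. VLDLR had the lowest maximum of the 43, at a log2 signal of 5.02 in empty vector replicate 3. VLDLR and CHAC1 reached 5 only in empty vector arrays, and ATF3 only in TFPIα replicate 2. The filter thus favoured the direction of their differences.

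Affymetrix Human Gene 1.0 ST arrays, which carry probes along whole transcripts, were hybridised with total RNA of 9 cultures, 3 for each of 3 labels: stable overexpression of TFPIα, stable overexpression of TFPIβ, and the empty vector pTOPO. Tissue factor pathway inhibitor (TFPI) is a secreted or membrane-bound inhibitor of blood coagulation, and α and β are splice forms of it. All cells, controls included, are labelled as SK-BR-3, a breast cancer line with amplified ERBB2, grown in RPMI1640 with serum and carrying the pcDNA3.1/V5/His-pTOPO plasmid with the TFPIα insert, the TFPIβ insert or no insert. The transfected lines were pools of drug-selected cells, with puromycin named in the labels and neomycin in the methods, so differences between the pools that arose in selection cannot be told apart from the insert, and in bulk RNA fewer cells of a kind cannot be told apart from less RNA per cell.

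The labels were checked first. The TFPI probe set gave log2 signals of 5.66, 5.81 and 5.51 in the arrays labelled TFPIα and of 5.55, 5.79 and 5.81 in those labelled TFPIβ, against 5.81, 6.48 and 6.45 in those labelled empty vector, and was not higher in either overexpressing group. The inserts held coding sequence alone, and the study states that array probes for the untranslated ends of the TFPI transcript therefore missed them. With PLIER, an algorithm that leaves out probes of low signal, the study found TFPI higher in both overexpressing lines. The RMA signal of this probe set therefore does not check the overexpression, and the groups are named below by their labels. ERBB2 lay between 5.63 and 6.24 over the 9 arrays and GRB7, its neighbour in the amplified region, between 5.04 and 5.30. The basal keratins KRT5 and KRT14 lay between 12.40 and 12.83 and between 11.99 and 12.74, and VIM, a further basal marker, between 10.34 and 10.74. The luminal keratins KRT8 and KRT19 lay between 5.68 and 6.20 and between 4.64 and 5.25, and a further luminal keratin, KRT18, between 9.49 and 10.76. Of markers of other cells, PTPRC (blood) lay between 2.19 and 2.28, PECAM1 (endothelium) between 5.25 and 5.66, and COL1A1 (fibroblasts) between 6.18 and 7.72. GATA3 and ESR1, also of the luminal list, lay between 4.86 and 5.82 and between 3.46 and 3.81. ERBB2, GRB7, KRT8 and KRT19 were low for the ERBB2-amplified luminal line that the labels name, and the basal markers KRT5, KRT14 and VIM were high for it. KRT18, read by the brightest of its 2 probe sets, was not low. Replicate numbers came with the labels, and arrays with the same number deviated together, so each comparison was also fitted with the number as a block.

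In the integrated stress response, kinases that sense amino acid shortage, ER stress, haem or double-stranded RNA phosphorylate the initiation factor eIF2α, which slows general translation while ATF4 mRNA is translated more. ATF4 then switches on genes for amino acid synthesis, amino acid transport and tRNA charging, and also DDIT3 (CHOP), a factor linked to cell death. The unfolded protein response has ER sensors of its own: EIF2AK3 (PERK) feeds into ATF4, ERN1 (IRE1) splices the mRNA of XBP1, and ATF6 is cut in the Golgi, and together with XBP1 it drives chaperone and degradation genes.

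Both branches are known for short promoter elements, which are shown because the comparison below sets ATF4 targets against chaperones. ATF4 with a C/EBP partner binds the C/EBP-ATF response element (CARE, letters TGATGNAA). ATF6 binds the ER stress element (ERSE, CCAAT, 9 bases of any kind, then CCACG) and ERSE-II (ATTGG, any base, then CCACG). The letters were searched on both strands of RefSeq promoter windows of GRCh38.p14, from 250 bases before to 50 after a listed start. Windows were at hand for 39 of the 43 members, with up to 4 for a member. CARE letters were in the windows of 5 of 39 members and of 4.46% of all 27305 genes with a window, ERSE letters in 7 of 39 members and 0.0916% of all genes, and ERSE-II letters in 3 of 39 members and 0.0696% of all genes. CARE letters were in 2 of 12 ATF4 targets and synthesis genes and in 0 of 13 chaperones, and ERSE letters were in 6 of 13 chaperones and 0 of those 12 genes. A match of letters is a description and not a bound site. The stretch before a listed start of ASNS (chr7:97872409-97872516, minus strand) and that of HSPA5 (chr9:125241344-125241449, minus strand) hold 1 exact match of the marked element each, and inexact matches were not searched. The ASNS stretch, like the CEBPG window below, lies inside the span of its gene, so its start is not the outermost one. Windows of 30 bases follow for CHAC1 (chr15:40953251-40953280, plus strand), CEBPG (chr19:33374060-33374089, plus strand), HERPUD1, which has both kinds (chr16:56931955-56931984 and chr16:56932015-56932044, plus strand), SDF2L1 (chr22:21642104-21642133, plus strand), CALR (chr19:12938378-12938407, plus strand) and XBP1 (chr22:28800598-28800627, minus strand). Each reads from 5′ to 3′ on the strand of its gene, with the fixed letters of the element in capitals, which are the reverse complement in CHAC1, SDF2L1, CALR and the CARE of HERPUD1.
ASNS CARE: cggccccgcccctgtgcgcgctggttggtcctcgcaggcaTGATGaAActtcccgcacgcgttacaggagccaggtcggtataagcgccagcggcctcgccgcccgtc
CHAC1 CARE: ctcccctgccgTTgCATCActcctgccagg
CEBPG CARE: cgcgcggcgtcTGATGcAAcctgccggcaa
HERPUD1 CARE: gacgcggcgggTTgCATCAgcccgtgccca
HERPUD1 ERSE-II: ccggacgccgATTGGgCCACGttgggagag
SDF2L1 ERSE-II: tcctcggaagCGTGGaCCAATcaaaaccct
HSPA5 ERSE: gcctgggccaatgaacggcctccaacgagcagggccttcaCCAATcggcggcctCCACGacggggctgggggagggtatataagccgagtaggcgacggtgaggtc
CALR ERSE: cccacgCGTGGtcgaccatcATTGGtcggt
XBP1 ERSE: cgctggCCAATcgcggagggCCACGaccgt

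Members leaned towards lower signal in both overexpressing groups, and no member passed the test. In the arrays labelled TFPIα, 32 of 43 members had a lower mean than with the empty vector and the median log2 fold change was -0.24, where the median over all 17482 probe sets past the filter was 0 and 50.0% were lower. In the arrays labelled TFPIβ, 42 of 43 were lower and 1, CEBPG, was higher, with a median of -0.25, where 49.5% of all probe sets were lower and 50.5% higher. Both comparisons use the same 3 empty vector arrays. Both counts of lower members hold CHAC1 and VLDLR, which passed the filter through empty vector arrays alone. Without empty vector replicate 1 the medians were -0.15 for TFPIα and -0.17 for TFPIβ, and without empty vector replicate 2 they were -0.33 and -0.38. ASNS and CTH, genes of amino acid synthesis, had the lowest fold changes in both, and they also varied widely among the empty vector arrays, as the heat map of all members shows.

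**Figure D1:**
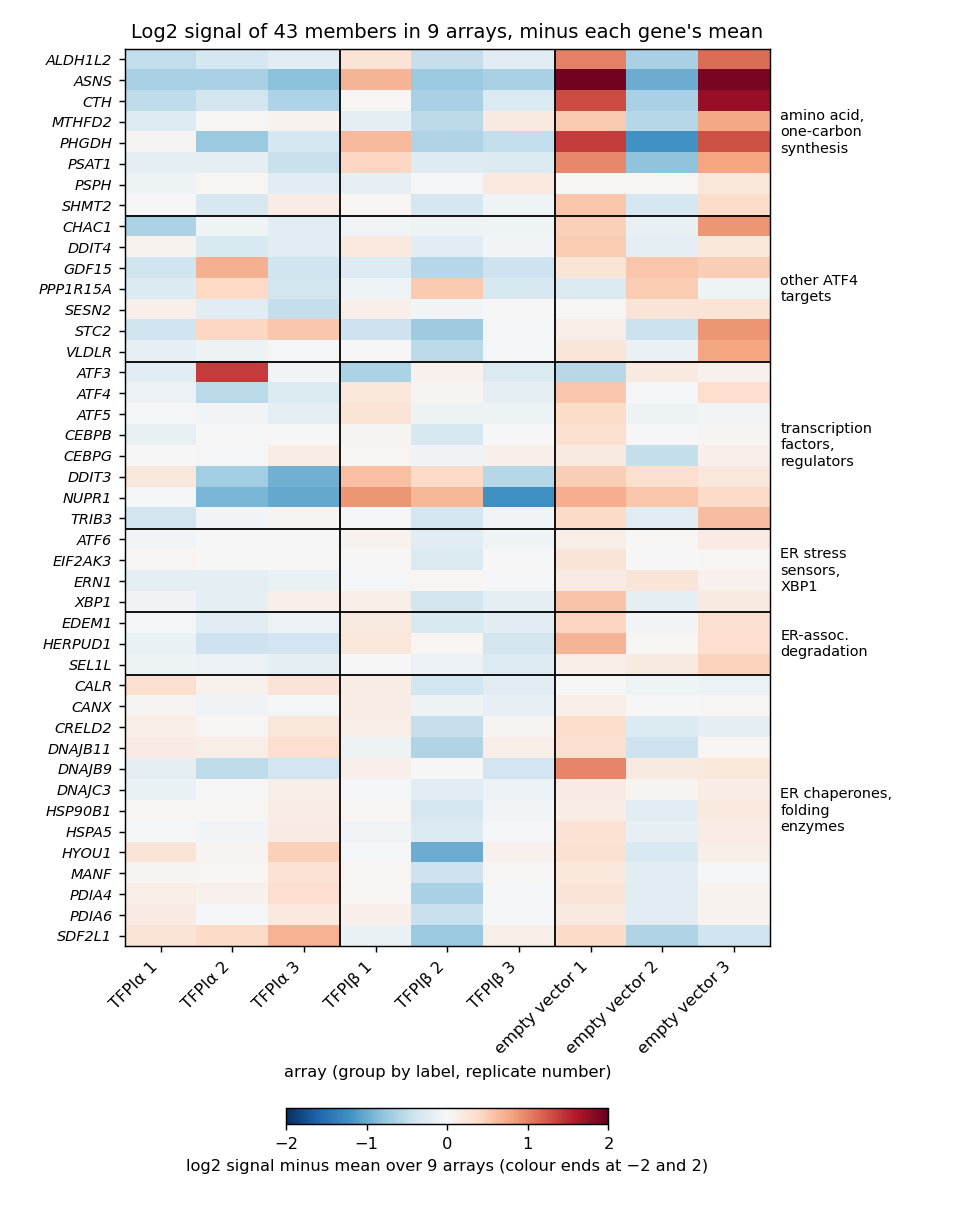
Log2 signal of each of the 43 measured members in each of the 9 arrays (columns, named by group label and replicate number), minus the mean of the gene over the arrays. Red is above and blue below the mean, and genes are grouped by role: ASNS, CTH and PHGDH are darkest red in empty vector replicates 1 and 3 and blue in replicate 2, and most chaperones are bluest in TFPIβ replicate 2.

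ASNS, asparagine synthetase (chr7:97851677-97928441), had log2 signals of 6.58, 6.57 and 6.41 in the arrays labelled TFPIα, of 7.90, 6.48 and 6.58 in those labelled TFPIβ, and of 9.15, 6.23 and 9.12 in those labelled empty vector, in the order of replicates 1, 2 and 3. Empty vector replicates 1 and 3 were the highest of the 9 arrays, and replicate 2 was the lowest. The mean was 6.52 ± 0.09 with TFPIα, 6.99 ± 0.79 with TFPIβ and 8.17 ± 1.68 with the empty vector (SD, n = 3 each). The log2 fold change was -1.65 ± 0.75 (SE) for TFPIα against empty vector (limma, adjusted p = 0.361) and -1.18 ± 0.75 for TFPIβ (adjusted p = 1). The group means lay apart by less than the spread among the empty vector arrays.

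The first enzymes of the serine pathway had the same order of empty vector arrays. PHGDH, which takes the first step from glycolysis to serine (chr1:119711934-119744215), had 8.29, 7.50 and 7.89 with TFPIα, 8.88, 7.64 and 7.75 with TFPIβ, and 9.64, 7.03 and 9.51 with the empty vector. PSAT1, the aminotransferase of the next step, had 8.67, 8.67 and 8.42 with TFPIα, 9.27, 8.61 and 8.59 with TFPIβ, and 9.83, 8.06 and 9.65 with the empty vector. In both genes empty vector replicates 1 and 3 ranked highest and replicate 2 lowest, and within TFPIβ replicate 1 was highest. PSPH, which completes serine synthesis, did not follow them, with 7.68, 7.82 and 7.58 with TFPIα, 7.62, 7.74 and 7.98 with TFPIβ, and 7.81, 7.82 and 8.01 with the empty vector. Its second probe set, which the annotation also assigns to PSPH alone, ranged from 5.76 in TFPIβ replicate 2 to 6.96 in empty vector replicate 3.

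CTH, which makes cysteine by transsulfuration (chr1:70411268-70439851), had 4.65, 4.79 and 4.54 with TFPIα, 5.17, 4.50 and 4.87 with TFPIβ, and 6.45, 4.51 and 6.89 with the empty vector, where the value of replicate 2 lay among the low ones. Its log2 fold change was -1.29 ± 0.53 for TFPIα (adjusted p = 0.346) and -1.10 ± 0.53 for TFPIβ (adjusted p = 1), and signals under 5 were at the level at which genes were filtered. ALDH1L2, a mitochondrial enzyme of folate one-carbon metabolism, had 6.59, 6.73 and 6.86 with TFPIα, 7.36, 6.62 and 6.86 with TFPIβ, and 8.09, 6.43 and 8.20 with the empty vector. The mitochondrial folate enzymes MTHFD2 and SHMT2 had their 2 highest values in the same empty vector arrays, 9.98 and 10.24 for MTHFD2 and 10.45 and 10.26 for SHMT2.

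Over the 8 measured genes of amino acid and one-carbon synthesis, empty vector replicates 1 and 3 were the 2 highest of the 9 arrays in 7, all but PSPH. This held for 20 of the 43 members (46.5%) and for 3.79% of all probe sets past the filter. Those 20 hold CHAC1 and VLDLR, which passed the filter only through these empty vector arrays, so the filter favoured that order for both. By SD among the empty vector arrays, ASNS, PHGDH and CTH ranked 2, 3 and 4 of 11838 probe sets with 1 symbol, with SDs of 1.68, 1.47 and 1.27, behind IL1R2 at 1.78. The mean of the 8 genes, each centred on its own mean, was -0.26, -0.32 and -0.30 in the TFPIα arrays, 0.21, -0.46 and -0.20 in the TFPIβ arrays and 0.96, -0.65 and 1.02 in the empty vector arrays. The TFPIα arrays were thus close together (SD 0.03) and the empty vector arrays far apart (SD 0.95), with their replicate 2 below every TFPIα and TFPIβ array.

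**Figure D2:**
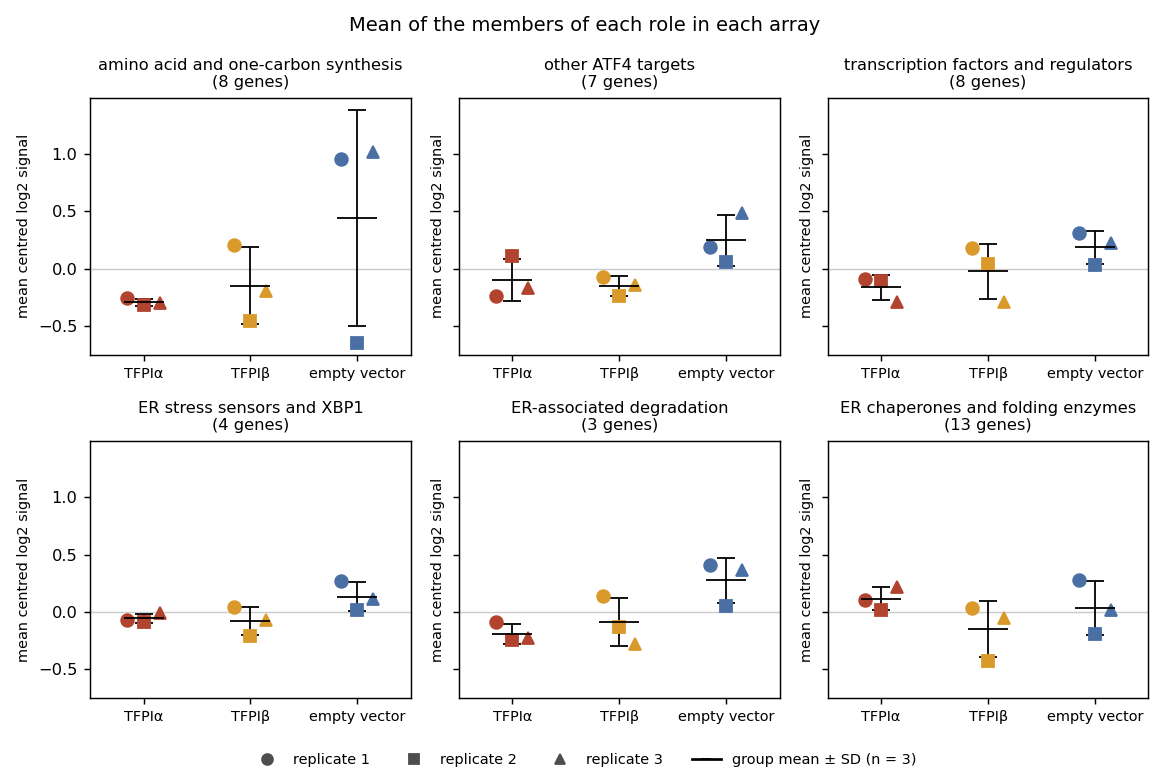
Mean centred log2 signal of the members of each role in each array, with TFPIα, TFPIβ and empty vector arrays from left to right. Symbols stand for replicate numbers, and bars are group means with SD (n = 3): the 8 synthesis genes run from -0.65 to 1.02 within the empty vector alone, while the 13 chaperones stay between -0.43 and 0.28.

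The median log2 fold change of the 8 synthesis genes was -0.72 for TFPIα against empty vector and -0.53 for TFPIβ, with 8 of 8 lower in both. Both medians were set by which empty vector arrays entered: for TFPIα the median was -0.33 without empty vector replicate 1 and -1.29 without empty vector replicate 2, and for TFPIβ it was -0.23 without empty vector replicate 1 and -1.06 without empty vector replicate 2.

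The other ATF4 targets (7 genes) were lower in 7 of 7 for both inserts, with medians of -0.38 for TFPIα and -0.48 for TFPIβ, but had no single pattern over arrays. Of these genes, CHAC1 and VLDLR passed the filter only through empty vector arrays, which favoured a lower value with either insert. CHAC1, which degrades glutathione, had 4.13, 4.68 and 4.54 with TFPIα, 4.72, 4.67 and 4.68 with TFPIβ, and 5.24, 4.62 and 5.65 with the empty vector, so that empty vector replicates 1 and 3 again stood highest. GDF15, a stress cytokine, had 6.18, 7.28 and 6.18 with TFPIα, 6.31, 6.01 and 6.16 with TFPIβ, and 6.84, 7.13 and 7.07 with the empty vector. Its TFPIβ arrays did not overlap the empty vector arrays (log2 fold change -0.86 ± 0.28, adjusted p = 1), and TFPIα replicate 2 was the highest array of all. STC2, a secreted glycoprotein, had 6.28, 7.09 and 7.21 with TFPIα, 6.26, 5.96 and 6.63 with TFPIβ, and 6.81, 6.25 and 7.56 with the empty vector, and its groups overlapped throughout.

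Among the transcription factors and regulators (8 genes), ATF4 itself (chr22:39520559-39522686) had 10.04, 9.61 and 9.87 with TFPIα, 10.37, 10.21 and 9.96 with TFPIβ, and 10.69, 10.12 and 10.49 with the empty vector. The TFPIα arrays lay below all 3 empty vector arrays, with TFPIβ overlapping both. The log2 fold change was -0.59 ± 0.18 for TFPIα (adjusted p = 0.335) and -0.25 ± 0.18 for TFPIβ (adjusted p = 1), and a second ATF4 probe set gave -0.52 and -0.20. ATF4 is controlled largely at translation, which an mRNA array does not measure.

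DDIT3 and NUPR1, a small stress-induced nuclear protein, had an order of arrays unlike that of the synthesis genes. DDIT3 had 5.93, 5.01 and 4.74 with TFPIα, 6.31, 6.09 and 5.13 with TFPIβ, and 6.20, 6.03 and 5.93 with the empty vector. NUPR1 (chr16:28532708-28538974) had 8.13, 7.25 and 7.15 with TFPIα, 9.06, 8.83 and 6.95 with TFPIβ, and 8.89, 8.72 and 8.55 with the empty vector. In both genes the empty vector arrays were close together, and TFPIα replicates 2 and 3 and TFPIβ replicate 3 were the lowest. Log2 fold changes for TFPIα against empty vector were -0.83 ± 0.36 for DDIT3 (adjusted p = 0.355) and -1.21 ± 0.52 for NUPR1 (adjusted p = 0.349), and those for TFPIβ were -0.21 and -0.44 (adjusted p = 1 for both).

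ATF3, an early stress factor, stood out in TFPIα replicate 2, with 4.22, 5.83 and 4.38 with TFPIα, 3.79, 4.51 and 4.14 with TFPIβ, and 3.88, 4.61 and 4.51 with the empty vector. Replicate 2 was the highest and replicate 1 the lowest array of each group. The log2 fold change of ATF3 for TFPIα was 0.48, and -0.03 without TFPIα replicate 2. CEBPG, a partner of ATF4, differed by 0.10 for TFPIα and 0.08 for TFPIβ, and ATF5, a relative of ATF4, by -0.16 and -0.05.

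The ER sensors and XBP1 (4 genes) differed by little, with medians of -0.18 for TFPIα and -0.19 for TFPIβ. ERN1 (chr17:64039142-64130144) had 5.23, 5.23 and 5.27 with TFPIα, 5.38, 5.45 and 5.38 with TFPIβ, and 5.57, 5.66 and 5.49 with the empty vector, and the 3 groups did not overlap. The log2 fold change was -0.33 ± 0.08 for TFPIα against empty vector (adjusted p = 0.335) and -0.17 ± 0.08 for TFPIβ (adjusted p = 1), with SDs of 0.02 among TFPIα, 0.04 among TFPIβ and 0.09 among empty vector arrays (n = 3 each). EIF2AK3 had 5.85, 5.81 and 5.81 with TFPIα, 5.81, 5.53 and 5.81 with TFPIβ, and 6.07, 5.81 and 5.85 with the empty vector. ATF6 differed by -0.12 ± 0.09 and -0.18 ± 0.09, and XBP1 by -0.24 ± 0.20 and -0.32 ± 0.20. The probe set of XBP1 does not tell its spliced from its unspliced form as far as the sources used here say, so splicing by ERN1 was not measured.

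**Figure D3:**
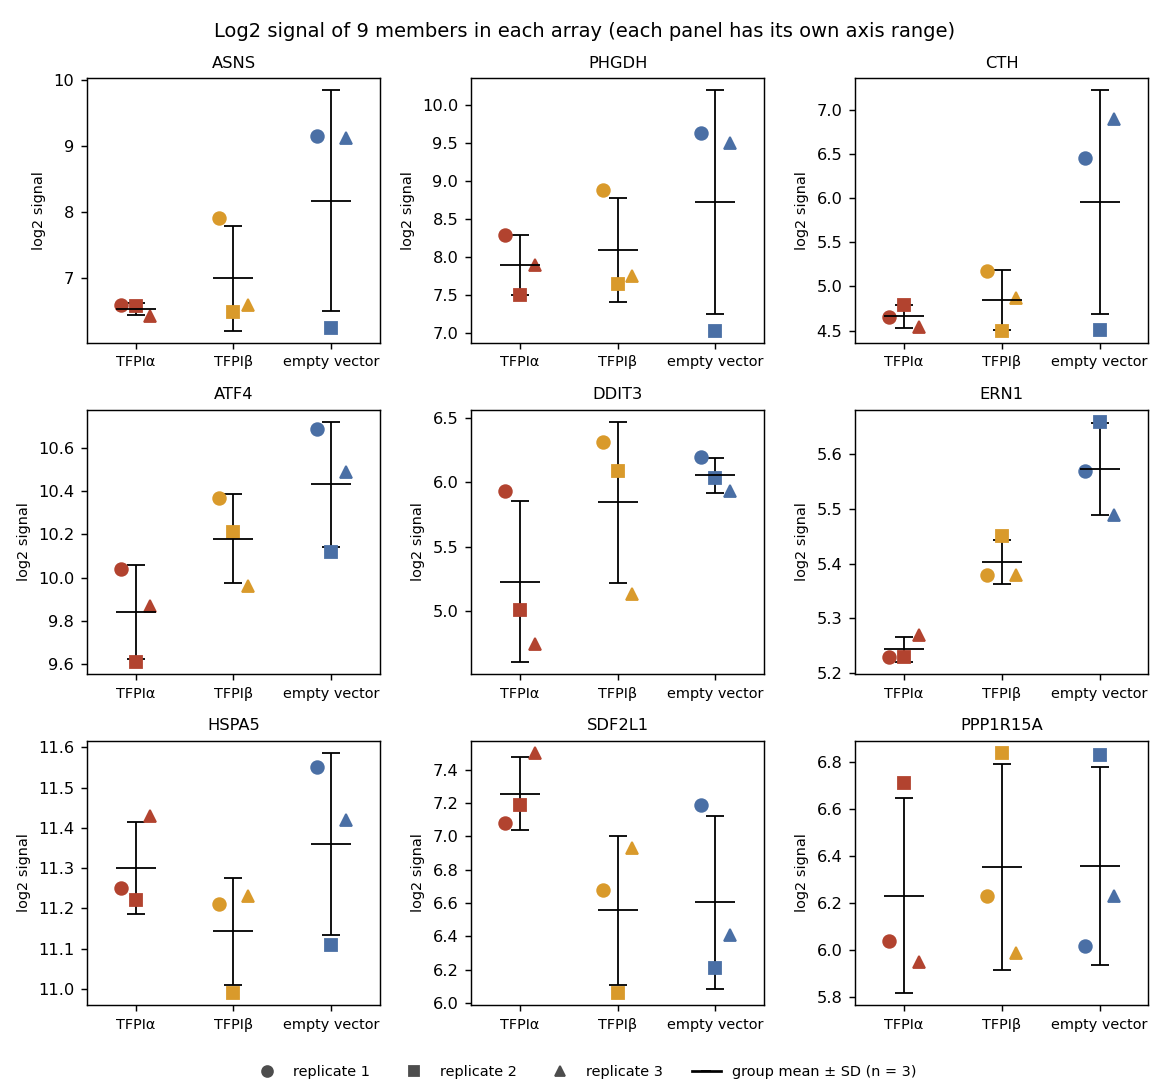
Log2 signal of 9 members in each array, one panel per gene, with TFPIα, TFPIβ and empty vector arrays from left to right, symbols for replicate numbers and bars for group means with SD (n = 3). ASNS, PHGDH and CTH spread widely within the empty vector, the ERN1 groups do not overlap, and PPP1R15A is highest in replicate 2 of every group.

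Genes of ER-associated degradation (3 genes) were lower in 3 of 3 for both inserts, with medians of -0.39 for TFPIα and -0.38 for TFPIβ. HERPUD1, a scaffold of the degradation complex (chr16:56932142-56944864), had 8.44, 8.15 and 8.18 with TFPIα, 8.80, 8.60 and 8.20 with TFPIβ, and 9.24, 8.59 and 8.91 with the empty vector. SEL1L, the adaptor of the ubiquitin ligase HRD1, had 7.57, 7.56 and 7.50 with TFPIα, 7.69, 7.56 and 7.41 with TFPIβ, and 7.81, 7.85 and 8.13 with the empty vector. All 6 arrays of the overexpressing groups lay below the empty vector arrays for SEL1L, and the TFPIα arrays did so for HERPUD1 (log2 fold change -0.66 ± 0.20, adjusted p = 0.335).

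Among ER chaperones and folding enzymes (13 genes), for TFPIα against empty vector 9 of 13 were higher, with a median of 0.14, and for TFPIβ 13 of 13 were lower, with a median of -0.16. The median for TFPIα was 0.03 without empty vector replicate 2 and 0.25 without empty vector replicate 1. HSPA5 (BiP), the main ER chaperone and brake on the sensors (chr9:125234853-125241343), had 11.25, 11.22 and 11.43 with TFPIα, 11.21, 10.99 and 11.23 with TFPIβ, and 11.55, 11.11 and 11.42 with the empty vector. HSP90B1, the ER form of HSP90, had 11.36, 11.35 and 11.46 with TFPIα, 11.36, 10.99 and 11.26 with TFPIβ, and 11.47, 11.11 and 11.51 with the empty vector. Replicate 2 was the lowest of its group in every group for both genes, with replicate 1 close to it in TFPIα, and the groups overlapped.

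SDF2L1, a partner of BiP (chr22:21642302-21644299), had the highest fold change of all members for TFPIα, with 7.08, 7.19 and 7.50 with TFPIα, 6.68, 6.06 and 6.93 with TFPIβ, and 7.19, 6.21 and 6.41 with the empty vector. Empty vector replicate 1 lay within the TFPIα range (log2 fold change 0.65 ± 0.30, adjusted p = 0.361), and no TFPIβ array did (0.70 ± 0.30 for TFPIα against TFPIβ, adjusted p = 0.532). CALR (calreticulin) had 10.30, 10.06 and 10.24 with TFPIα, 10.13, 9.62 and 9.75 with TFPIβ, and 9.97, 9.90 and 9.86 with the empty vector, so that the TFPIα arrays lay above the empty vector arrays by a log2 fold change of 0.29 ± 0.14 (adjusted p = 0.366). DNAJB9, a co-chaperone of BiP that holds ERN1 inactive, had the lowest fold changes of the 13 for both inserts. Its signals were 5.68, 5.36 and 5.48 with TFPIα, 5.96, 5.86 and 5.49 with TFPIβ, and 6.84, 6.05 and 6.07 with the empty vector, with log2 fold changes of -0.81 ± 0.23 (adjusted p = 0.335) and -0.55 ± 0.23 (adjusted p = 1).

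TFPIβ replicate 2 was the lowest of the 9 arrays for 11 of 13 chaperones (84.6%), all but DNAJB9 and CANX, and for 17.8% of all probe sets past the filter. HYOU1, a large HSP70-like chaperone, had 8.01, 7.81 and 8.22 with TFPIα, 7.73, 6.76 and 7.84 with TFPIβ, and 8.05, 7.44 and 7.87 with the empty vector. The mean of the 13 centred genes was 0.10, 0.02 and 0.22 in the TFPIα arrays, 0.03, -0.43 and -0.05 in the TFPIβ arrays and 0.28, -0.19 and 0.02 in the empty vector arrays. Proliferation genes were low in the same 2 arrays, TFPIβ replicate 2 and empty vector replicate 2. Of a list from MKI67 to PCNA, 12 of 12 genes were lowest in TFPIβ replicate 2. Their mean was 0.64, 0.76 and 0.72 in the TFPIα arrays, -0.13, -1.53 and 0.72 in the TFPIβ arrays and -0.03, -1.04 and -0.11 in the empty vector arrays. Empty vector replicate 1, the highest for chaperones at 0.28, had -0.03 for proliferation genes, and TFPIβ replicate 3 had -0.05 and 0.72. The part of proliferation in the chaperone values was not tested. Without TFPIβ replicate 2 the median of the chaperones for TFPIβ against empty vector was 0.

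For TFPIα against empty vector, 0 of 43 members passed an adjusted p of 0.05 with a fold change of at least 2 (limma, lowest adjusted p = 0.335), as did 0.00572% of all probe sets. At an unadjusted p under 0.05, 9 members were lower (ATF4, NUPR1, CTH, CHAC1, SESN2, DNAJB9, HERPUD1, SEL1L and ERN1), which is 20.9% of them against 5.58% of all probe sets, and 0 were higher, against 8.59% of all. With the replicate number as a block 0 members passed the adjusted test, and 13 were lower and 2 higher at an unadjusted p under 0.05, against 8.38% and 11.9% of all probe sets. CHAC1, which passed the filter only through empty vector arrays, was among the 9 and among the 13. Members without overlap between the groups numbered 7 lower and 1 higher, against 8.85% and 14.4% of all probe sets. In either direction 14.2% of all probe sets had an unadjusted p under 0.05, and the count of members was 17 without empty vector replicate 2 and 5 without empty vector replicate 3.

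For TFPIβ against empty vector, 0 of 43 members passed (lowest adjusted p = 0.976), as did 0% of all probe sets. At an unadjusted p under 0.05, 4 members were lower (GDF15, DNAJB9, DNAJC3 and SEL1L), which is 9.3% against 2.23% of all probe sets, and 0 were higher, against 2.49%. With the block, 9 were lower against 3.51% of all, and 0 were higher against 3.64%. VLDLR, which passed the filter only through an empty vector array, was among the 9. Members without overlap numbered 5 lower and 0 higher, against 3.74% and 3.43% of all. In either direction 4.72% of all probe sets had an unadjusted p under 0.05, and the count of members was 20 without empty vector replicate 2, 7 without TFPIβ replicate 1, and 2 without TFPIβ replicate 2, TFPIβ replicate 3 or empty vector replicate 1. An exact permutation test of 3 arrays against 3 cannot give a two-sided p below 0.1 for any single gene.

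**Figure D4:**
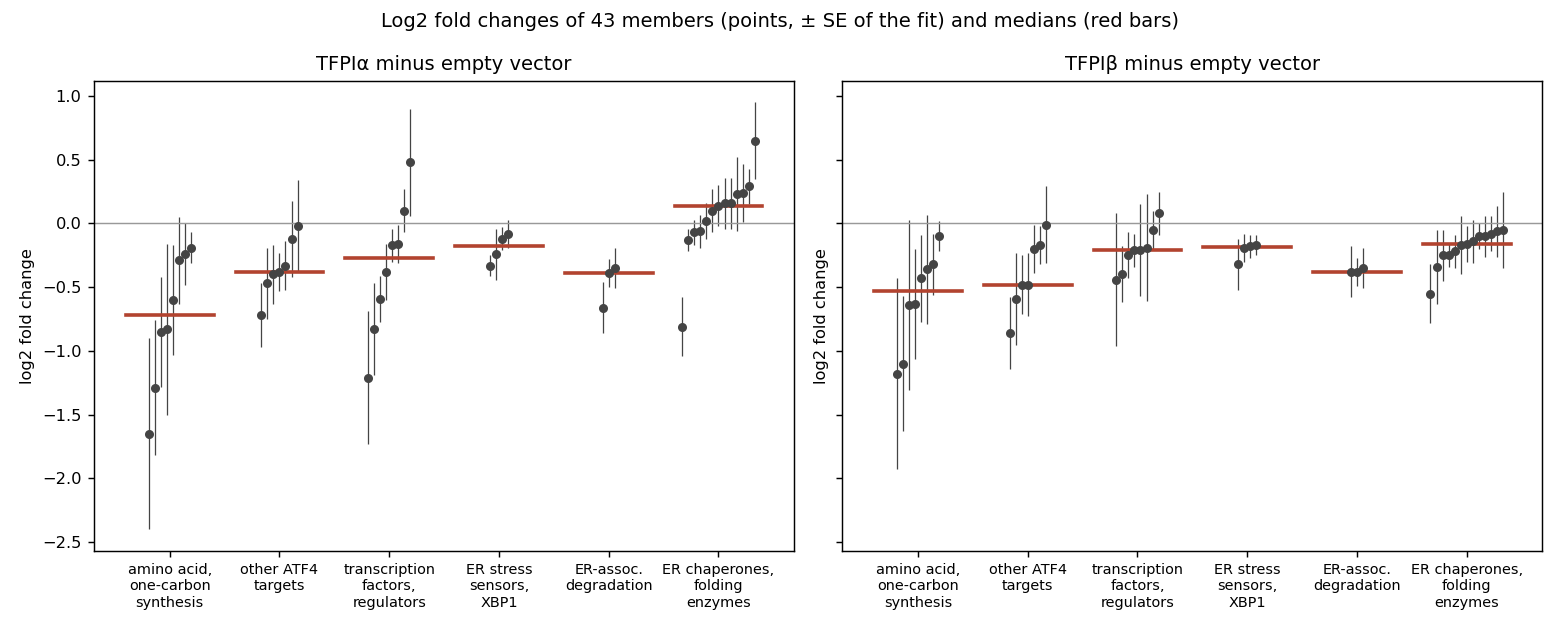
Log2 fold change of each of the 43 members (points, with the SE of the fit) by role, for TFPIα minus empty vector on the left and TFPIβ minus empty vector on the right, which share the empty vector arrays; red bars are medians. The synthesis genes have the lowest medians, -0.72 and -0.53, and the chaperones lie around 0.14 and -0.16.

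Between the inserts, 0 of 43 members passed for TFPIα against TFPIβ (lowest adjusted p = 0.532), as did 0% of all probe sets, and 24 of 43 were higher with TFPIα and 19 lower, against 50.3% and 49.7% of all probe sets, with a median of 0.03. Chaperones were higher with TFPIα in 12 of 13, with a median of 0.24, and the median was 0.08 without TFPIβ replicate 2. At an unadjusted p under 0.05, 2 members were higher, SDF2L1 and CALR, against 4.70% of all probe sets, and 0 were lower, against 3.94% (8.63% in either direction). That count of 2 was 6 without TFPIβ replicate 3, 1 without TFPIα replicate 2 or empty vector replicate 3, and 0 without TFPIα replicate 3 or TFPIβ replicate 2. With the block, 7 were higher and 2 lower, against 9.21% and 6.19%, and 6 of those 7 were chaperones. The other was ATF3, which passed the filter only through TFPIα replicate 2. SDF2L1, PDIA4 and MANF were higher without overlap and ERN1 was lower without overlap, against 7.10% and 6.15% of all probe sets.

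The ATF4 arm, taken as the 8 synthesis genes and the 7 other ATF4 targets, was set against the 13 chaperones as a difference of their means in each array. That difference was -0.35, -0.13 and -0.46 in the TFPIα arrays, 0.05, 0.08 and -0.13 in the TFPIβ arrays and 0.32, -0.13 and 0.75 in the empty vector arrays. Group means were -0.31 ± 0.17 with TFPIα, 0.00 ± 0.11 with TFPIβ and 0.31 ± 0.44 with the empty vector (SD, n = 3 each), a difference of -0.63 for TFPIα against empty vector and of -0.32 for TFPIβ. Empty vector replicate 2 matched TFPIα replicate 2 and TFPIβ replicate 3, so the groups overlapped. When each array was left out in turn, the difference for TFPIα ran from -0.85 without empty vector replicate 2 to -0.41 without empty vector replicate 3, and that for TFPIβ ran from -0.54 without empty vector replicate 2 to -0.10 without empty vector replicate 3.

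**Figure D5:**
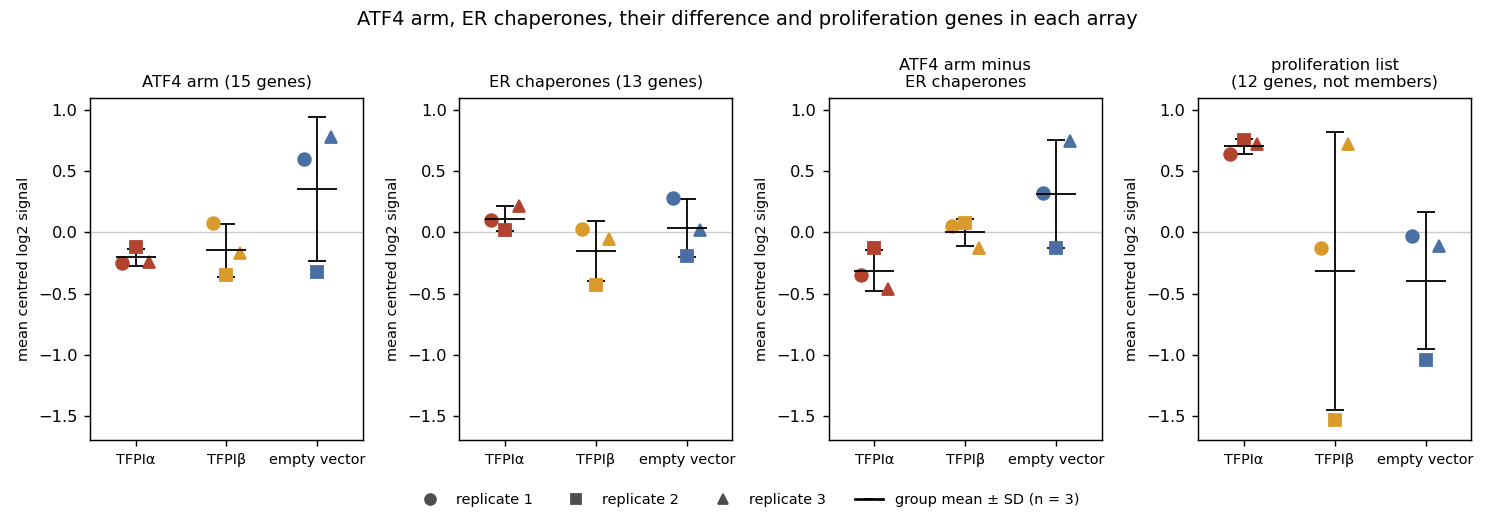
Mean centred log2 signal in each array of the ATF4 arm (15 genes), the ER chaperones (13 genes), their difference, and 12 proliferation genes that are not members, on one vertical scale, with TFPIα, TFPIβ and empty vector arrays from left to right and bars for group means with SD (n = 3). The ATF4 arm is high in empty vector replicates 1 and 3, and chaperones and proliferation genes are lowest in TFPIβ replicate 2 and next lowest in empty vector replicate 2.

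Replicate numbers were compared across the 3 groups, with vector group in the model. No member passed an adjusted p of 0.05 (0 of 43, limma, lowest adjusted p = 0.149), as did 0% of all probe sets, and 17 of 43 (39.5%) had an unadjusted p under 0.05, against 16.0% of all probe sets. That count was 6 without TFPIβ replicate 1, 9 without empty vector replicate 1, 10 without TFPIα replicate 3 or empty vector replicate 2, and 11 without TFPIβ replicate 2. PPP1R15A (GADD34), which brings back translation by dephosphorylating eIF2α, had the lowest p. It had 6.04, 6.71 and 5.95 with TFPIα, 6.23, 6.84 and 5.99 with TFPIβ, and 6.02, 6.83 and 6.23 with the empty vector, with replicate 2 highest in each group. DDIT4, an inhibitor of mTORC1, was highest in replicate 1 of each group, with 11.04, 10.66 and 10.75 with TFPIα, 11.16, 10.75 and 10.92 with TFPIβ, and 11.47, 10.79 and 11.18 with the empty vector (adjusted p = 0.213). By the mean over the groups, replicate 2 lay below replicate 1 for 38 of 43 members and for 13 of 13 chaperones, and for 58.2% of all probe sets. SHMT2, PDIA6, HYOU1 and EDEM1, a lectin of ER-associated degradation, had adjusted p-values of 0.239, 0.24, 0.244 and 0.267. ATF3, also highest in replicate 2 of each group, and DDIT3 had adjusted p-values of 0.248 and 0.255 (limma). ATF3 passed the filter only through TFPIα replicate 2.

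Further genes of both pathways were counted from lists of their own. Of 26 other genes of the integrated stress response that passed the filter, 0 passed the adjusted test in either comparison with the empty vector, and at an unadjusted p under 0.05, 1 was higher and 3 lower for TFPIα and 0 for TFPIβ. Over all probe sets the shares at that level were 8.59% higher and 5.58% lower for TFPIα and 2.49% higher and 2.23% lower for TFPIβ, so that these small counts do not set the list apart. All 9 measured aminoacyl-tRNA synthetases, which charge tRNAs with amino acids, were lower for both inserts, with medians of -0.34 for TFPIα and -0.39 for TFPIβ, and empty vector replicates 1 and 3 were the 2 highest arrays in 9 of 9. WARS, the synthetase for tryptophan, had 7.91, 7.94 and 8.19 with TFPIα, 7.85, 6.92 and 7.90 with TFPIβ, and 8.94, 7.22 and 8.90 with the empty vector. CARS, that for cysteine, had a log2 fold change of -0.77 for TFPIα (adjusted p = 0.335).

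Amino acid transporters (7 genes) were lower in 7 of 7 for both inserts, with medians of -0.49 for TFPIα and -0.27 for TFPIβ, and the glycine transporter SLC6A9 had the lowest fold change for TFPIα at -0.81 (adjusted p = 0.349). By contrast, eIF2 kinases and translation factors (10 genes) had medians of 0.11 and -0.01, with EIF2B3, a subunit of the exchange factor of eIF2, at 0.46 for TFPIα (adjusted p = 0.375) and EIF2S1, eIF2α itself, at 0.35 (adjusted p = 0.411). Of 25 other unfolded protein response genes, 0 passed the adjusted test. At an unadjusted p under 0.05, 2 were higher (8%) and 2 lower (8%) for TFPIα, against 8.59% and 5.58% of all probe sets. For TFPIβ, 1 was higher (4%) and 3 lower (12%), against 2.49% and 2.23% of all. These counts are small, and the list was not tested as a set. KDELR3, a receptor that returns ER proteins from the Golgi, had 5.30, 5.18 and 5.53 with TFPIα, 5.01, 4.52 and 4.97 with TFPIβ, and 4.92, 4.38 and 4.34 with the empty vector. Its TFPIα arrays lay above all others (log2 fold change 0.79 against empty vector, adjusted p = 0.335). KDELR3, 1 of the 2 counted as higher for TFPIα, reached a signal of 5 only in overexpressing arrays. The filter thus favoured its higher value with the inserts. MBTPS1, the protease that cuts ATF6, had 8.25, 8.09 and 8.04 with TFPIα, 8.18, 8.30 and 8.02 with TFPIβ, and 8.53, 8.47 and 8.51 with the empty vector, and both inserts lay below the empty vector arrays (log2 fold changes -0.38 and -0.34, adjusted p = 0.335 and 0.954).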

How the data were processed

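RNA of 9 cultures, 3 for each label, was hybridised to 1-colour arrays. The deposited values are log2 signals per probe set, which the labels and methods say the authors made with RMA in Partek; RMA corrects background, equalises the distributions of the arrays and summarises probes, so a change of most genes in one direction would be removed. Nothing names the base of the logarithm, and base 2 was assumed because RMA gives it. Scanner intensities were not used here, and depth does not apply to arrays: their number limits the precision.

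Of 33297 probe sets, 17482 had a highest signal of at least 5 and were fitted with limma 3.58.1 (R 4.3.3), one mean per group over all 9 arrays, with Benjamini-Hochberg adjustment over all of them. A member passed at a fold change of 2 or more together with an adjusted p under 0.05. Replicate numbers were tested with limma's F test in a model with vector group. Gene symbols came from the platform annotation, positions and promoters from RefSeq (GRCh38.p14), and figures from matplotlib 3.10.9 in Python.

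The replicate numbers come from the sample titles. Same-numbered arrays of different groups correlated in their deviations from the group means at 0.137 to 0.594 in 9 of 9 pairs, over the limit of 0.1, against -0.512 to 0.266 in the 18 other pairs, so the numbers were taken to pair the arrays. The SE and adjusted p printed for single genes in vector comparisons come from the fit without this block. With the block, the lowest limma adjusted p of a member was 0.183 for TFPIα against empty vector. It was 0.575 for TFPIβ against empty vector and 0.32 for TFPIα against TFPIβ. Whether replicates were separate cultures rests on the labels and the methods, and p-values measure the spread between these arrays.

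The members and all gene lists were chosen with earlier results of these data known. Members named in the text are ATF4, DDIT3, ASNS, PSAT1, PHGDH, HSPA5, HSP90B1, XBP1, ERN1, EIF2AK3 and ATF6, the 4 highest and 4 lowest in each comparison, and the 8 with the lowest p between replicate numbers, with the 2 highest and 2 lowest of each further list; others are named where a count or a feature singled them out after their values were seen. Alternatives covered the thresholds, the model, the filter, centring, the choice of probe set, the replicate block and each array left out.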

Additional observations from a re-analysis of the deposited data

How the results depend on the processing

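Under each alternative that was run, 0 members passed in any vector comparison and between replicate numbers, and a relaxed adjusted p of 0.10, no fold change limit, an unmoderated model and each array left out gave no call either. With the replicate block, members at an unadjusted p under 0.05 numbered 15, against 9 without it, for TFPIα against empty vector, 9 against 4 for TFPIβ against empty vector, and 9 against 2 for TFPIα against TFPIβ; the block changed no call. When only the groups compared were fitted, 1 member was at that level for TFPIα against TFPIβ. Between replicate numbers, 17 members were at that level, against 5 without moderation and 7 without a term for vector group. When each array was left out, these counts ran from 5 to 17 for TFPIα against empty vector, from 2 to 20 for TFPIβ, from 0 to 6 for TFPIα against TFPIβ and from 6 to 24 between replicate numbers.

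The medians and the difference between ATF4 arm and chaperones moved by less than 1 SD of the empty vector arrays under the other filter, centring and choice of probe set. Over all 43 members measured, the log2 fold change changed sign when 1 or another of the 9 arrays was left out in 7 members for TFPIα against empty vector, in 11 for TFPIβ and in 15 for TFPIα against TFPIβ. Among the members named by the rule given above, those for TFPIα against empty vector that changed sign when an array was left out ran from -0.18 to 0.03 for HSPA5, -0.10 to 0.10 for HSP90B1, -0.03 to 0.77 for ATF3, -0.11 to 0.22 for CEBPG, -0.36 to 0.11 for PPP1R15A, -0.33 to 0.33 for STC2 and -0.01 to 0.18 for PDIA6, and that of STC2 was 0.01 with arrays centred on their medians. For TFPIβ, where CRELD2 and MANF outside that rule also changed sign, they ran from -0.44 to 0.15 for DDIT3, -0.83 to 0.22 for NUPR1, -0.24 to 0.25 for SDF2L1, -0.22 to 0.03 for CALR, -0.36 to 0.04 for DNAJB11, -0.12 to 0.20 for CEBPG, -0.25 to 0.23 for PPP1R15A, -0.17 to 0.10 for ATF5 and -0.25 to 0.03 for PDIA6. The causes were not tested. With 3 arrays a group, differences of the size seen in most members were within the spread between arrays.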
